A study of Mus musculus with 2 samples.

Results

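The transcripts described here encode the subunits of the transcription factor NF-κB and the inhibitors through which it limits itself. They were followed in colon mucosal scrapings of 2 genotypes of mouse. The list held 10 genes, 5 subunits (Nfkb1, Nfkb2, Rel, Rela and Relb) and 5 inhibitors (Nfkbia, Nfkbie, Nfkbiz, Bcl3 and Tnfaip3). A gene's members were all probe sets that the platform annotation gave that symbol alone. This gave 18 probe sets for 9 genes, of 45101 probe sets and 18193 named genes in all. No probe set of the annotation used here carried the symbol Nfkb1, and that gene was not analysed here.

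Hif-2αΔIE mice are read, from knowledge of this model, as lacking Epas1, the gene of the hypoxia-inducible factor HIF-2α, in intestinal epithelial cells through a Cre transgene. Hif-2αF/F mice carry the conditional alleles of Epas1, and both genotypes were on a C57BL/6 background. Mice of both genotypes, 6 to 8 weeks old per the sample labels and 7 weeks old per the design text, received 3% dextran sulfate sodium (DSS) for 3 days, a polysaccharide that injures the colonic mucosa. There was no group without DSS, so a response to injury was not measured. The design text counts 5 ΔIE and 6 F/F mice, while each genotype is represented by a single array; the sources used here do not say if the RNA of several mice was pooled, nor which promoter drives Cre. Cells other than the epithelium, including the leukocytes and stroma of a scraping, would keep the gene in such a model. With 1 array per genotype the differences below have no replicate check and no test was possible, so each is a comparison of these 2 arrays.

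NF-κB is a family of dimeric transcription factors that inhibitors of the IκB family hold in the cytoplasm of resting cells. Signals such as TNF, IL-1 and bacterial products activate IκB kinase, which marks IκB for degradation and frees the dimers to enter the nucleus. Among the genes that NF-κB then induces are several of its own subunits and inhibitors, which makes their transcripts a common readout of the pathway. In the gut it is active in the epithelium as well as in leukocytes and stroma during colitis.

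The promoter sequences are shown because this feedback acts through κB sites, the DNA elements that NF-κB dimers bind. Windows from 250 bases before to 50 bases after annotated starts (RefSeq, build GRCm38.p6) were matched to 7 of the 9 measured members, and to 10 starts of these. They were searched on both strands for the NF-κB consensus, a run of 3 G, a purine, any base, A or T, 2 pyrimidines and 2 C. A match was found for 6 of the 7 members, in 8 of their 10 windows, and for Rela in none. Of all 32851 windows in the table, 4.51% held a match, and 5.14% of 27025 genes had one in any window. A match describes the letters and is no measured binding site. The 250 bases before the start are given for 3 inhibitors, and a shorter stretch around the matches in 1 window of each other member that had one. All run 5′ to 3′ along the gene, and capitals mark the matches, of which some overlap.
Nfkbia (chr12:55492648-55492897, - strand): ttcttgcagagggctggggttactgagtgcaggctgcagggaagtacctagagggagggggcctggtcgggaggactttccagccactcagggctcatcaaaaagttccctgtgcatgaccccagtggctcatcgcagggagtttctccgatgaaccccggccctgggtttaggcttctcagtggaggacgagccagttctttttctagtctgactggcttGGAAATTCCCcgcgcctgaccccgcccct
Tnfaip3 (chr10:19015411-19015660, - strand): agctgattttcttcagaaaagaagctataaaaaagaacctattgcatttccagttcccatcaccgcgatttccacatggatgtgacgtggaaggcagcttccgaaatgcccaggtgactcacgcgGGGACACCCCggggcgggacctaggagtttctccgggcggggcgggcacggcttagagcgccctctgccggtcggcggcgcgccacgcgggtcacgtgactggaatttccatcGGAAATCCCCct
Nfkbie (chr17:45555450-45555699, + strand): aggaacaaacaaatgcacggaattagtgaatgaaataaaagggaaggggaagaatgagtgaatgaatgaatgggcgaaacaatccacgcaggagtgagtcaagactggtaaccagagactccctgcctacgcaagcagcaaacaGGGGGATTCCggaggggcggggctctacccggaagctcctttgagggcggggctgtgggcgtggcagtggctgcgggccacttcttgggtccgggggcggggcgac
Bcl3 (chr7:19822734-19822763, - strand): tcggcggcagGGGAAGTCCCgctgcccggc
Nfkb2 (chr19:46304688-46304737, + strand): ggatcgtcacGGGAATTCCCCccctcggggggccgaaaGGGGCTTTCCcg
Rel (chr11:23771022-23771071, - strand): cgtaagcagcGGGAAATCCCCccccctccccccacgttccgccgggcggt

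In Nfkbia the match began 29 bases before the start. The Tnfaip3 window held matches beginning 125 and 12 bases before its start, while the window of a second Tnfaip3 start held none. The Nfkbie match began 106 bases before the start. In Bcl3 the match lay just after the start, at base 3 of the transcript. Overlapping matches began 39 and 38 bases before the Nfkb2 start shown, with a further one at 11 bases, and 92 and 91 bases before the Rel start. The windows of the other Nfkb2 starts also held matches, GGAATGTCCC beginning 236 bases before the second start and GGGACTTTCC, which their windows share, 225 bases before the third. Across all genes kept by the expression filter that had a promoter window, 610 held a match and 8974 did not. Of those with a match, 14.1% were at least 1.5-fold lower on the ΔIE array, against 9.58% of those without one, and the median differences were -0.01 and 0.03. The 6 members with a match are among the 610, and no test was made of this difference. The lowest value of the 610, -2.30, is that of Ccl20, one of the NF-κB targets described below. How many other such targets the 610 hold was not counted.

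Levels are given on the log2 scale of robust multi-array averaging (RMA), and every difference is ΔIE minus F/F on that scale. The genotype labels were checked first. The 4 control probe sets for Cre recombinase read 7.86 to 10.01 on the ΔIE array and 2.92 to 4.22 on the F/F array. Whether this signal came from the transgene or from a control added at hybridisation was not tested. The brighter Epas1 probe set read 11.77 on the ΔIE array and 11.90 on the F/F array, and the dimmer one 7.15 and 6.98 on the ΔIE and F/F arrays. Whether their probes lie in the deleted part was not determined here. Epithelial markers of the colon were high on both arrays, with a median level of 13.46 on the ΔIE array and 13.27 on the F/F array over 8 genes. Each gene was read from its brightest probe set. A filter kept genes that reached 6.11, the median over all probe sets, on at least 1 array, and 11899 genes passed. All 9 measured members were kept, but Rel passed through its F/F value alone.

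All 9 measured members were lower on the ΔIE array, by medians of -0.36 over the 4 subunits and -0.61 over the 5 inhibitors. Of all genes kept, 46.5% were lower, with a median difference of 0.02. At 1.5-fold, 4 members were lower (Nfkbie, Tnfaip3, Rel and Bcl3) and none was higher, while 10.6% of all genes kept were at least 1.5-fold lower and 4.37% at least 1.5-fold higher. Only Nfkbie was at least 2-fold lower and no member was 2-fold higher, where the shares of all genes kept were 5.3% and 1.15%. Where both arrays had to pass the filter, Rel dropped out, and 3 of 8 members were at least 1.5-fold lower beside 9.01% of all genes. Fewer cells of a type and less RNA per cell cannot be told apart in such bulk samples.

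**Figure D1:**
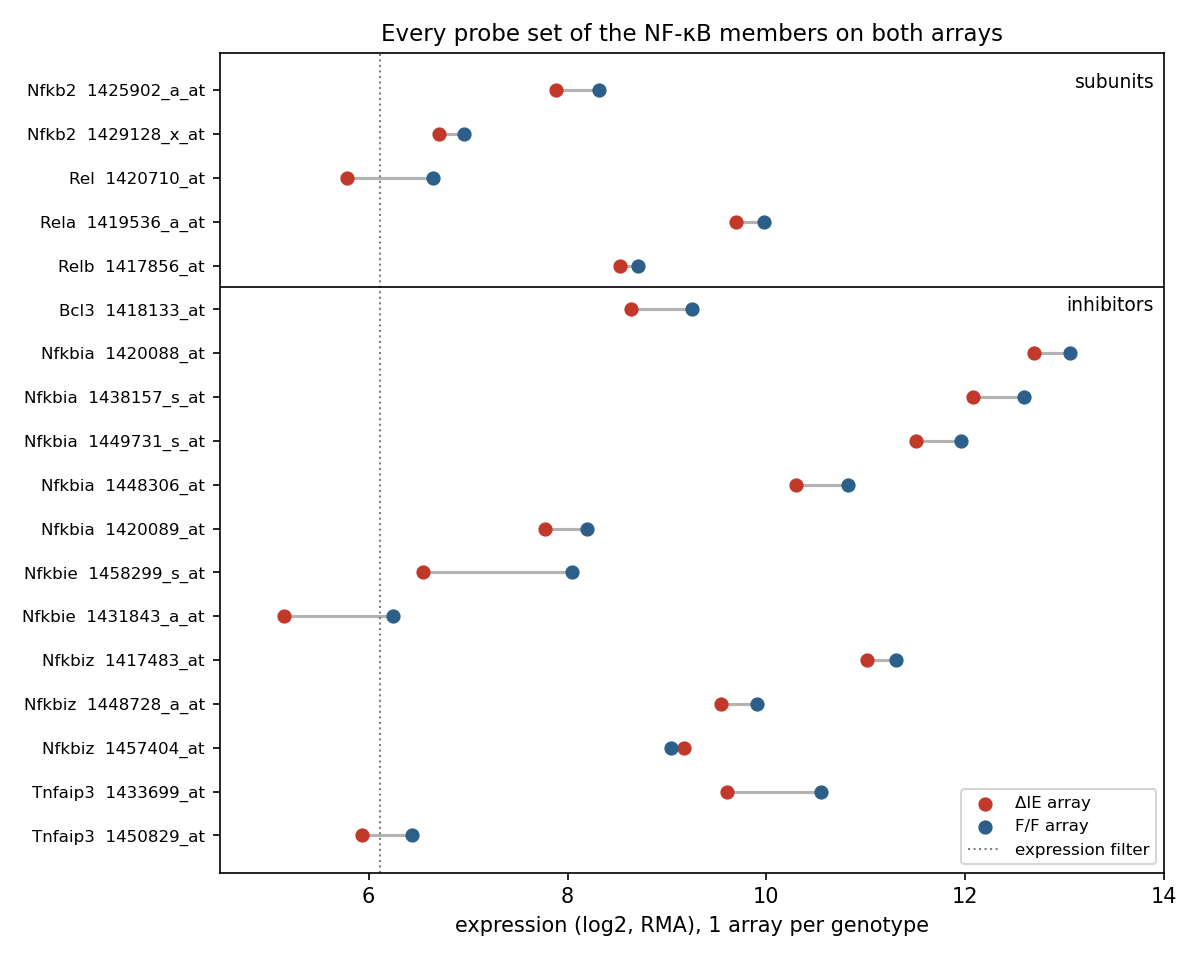
Expression of every member probe set (log2, RMA; horizontal axis) on the ΔIE array (red) and the F/F array (blue), subunits above and inhibitors below, with the expression filter as a dotted line. The red point lies left of the blue in 17 of 18 probe sets, and the exception is 1 of 3 Nfkbiz probe sets.

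Among the subunits, Rela encodes p65, the main activating subunit of the canonical pathway. Its probe set read 9.69 on the ΔIE array and 9.97 on the F/F array, a difference of -0.28. Relb, whose product pairs with p52 in the non-canonical pathway, differed least of all members, at 8.52 on the ΔIE array and 8.71 on the F/F array, or -0.18. Of all genes kept, 24.8% had a difference as low as that of Relb or lower, which places it near the lower quartile of -0.18, and the share for Rela was 19.2%.

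Nfkb2 encodes p100, the precursor of p52 that also acts as an inhibitor until it is processed. Its brighter probe set read 7.88 on the ΔIE array and 8.32 on the F/F array, and the dimmer one 6.71 and 6.96 on the ΔIE and F/F arrays. The differences of -0.44 and -0.25 had the same sign. The share of all genes kept that were as low as the brighter one or lower was 13.6%. Rel encodes c-Rel, a subunit best known from lymphocytes and myeloid cells. It read 5.78 on the ΔIE array, below the filter, and 6.64 on the F/F array, so no fold is given for its difference of -0.86. Of all genes kept, 6.91% were as low or lower, and of the 1406 genes within 0.5 of its mean level 11.6%. That level is near the filter, where genes with a mean below it are kept only if the arrays differ. The second share is affected by this selection.

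Of the classical IκB inhibitors, Nfkbia encodes IκBα, the main cytoplasmic inhibitor and a rapidly induced target. All 5 of its probe sets were lower on the ΔIE array, by -0.52 to -0.36. The brightest read 12.69 on the ΔIE array and 13.05 on the F/F array, a 1.28-fold difference, and gave the smallest difference of the 5. The 4 dimmer ones read 12.08, 11.50, 10.30 and 7.77 on the ΔIE array, against 12.59, 11.96, 10.82 and 8.19 on the F/F array. The 5 differences thus lay close together over a wide range of brightness. Of 231 genes within 0.5 of its mean level, 9.09% were as low or lower.

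Nfkbie encodes IκBε, a later-acting inhibitor of Rela and Rel dimers, and was the member that differed most. Its brighter probe set read 6.55 on the ΔIE array and 8.05 on the F/F array, which is 2.82-fold lower. The dimmer probe set read 5.15 on the ΔIE array, below the filter, and 6.24 on the F/F array, a difference of -1.10. The identifier of the brighter probe set ends in _s_at, which marks probes that can match several transcripts. Both probe sets gave a difference beyond that of every other member's probe sets. Of all genes kept, 1.92% were as low as the brighter one or lower.

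The atypical, nuclear members of the IκB family are Nfkbiz and Bcl3. Nfkbiz encodes IκBζ, which cooperates with NF-κB at a subset of targets and is induced by IL-1, Toll-like receptor and IL-17 signals. Its 3 probe sets did not have the same sign. The brighter pair read 11.01 and 9.54 on the ΔIE array, against 11.31 and 9.91 on the F/F array, with differences of -0.29 and -0.36. The dimmest was higher, at 9.18 on the ΔIE array and 9.04 on the F/F array, a difference of 0.14. The share of all genes kept that were as low as the brightest or lower was 18.6%. Bcl3, whose product binds p50 and p52 dimers, has a single probe set, which read 8.64 on the ΔIE array and 9.25 on the F/F array. It was 1.53-fold lower, and 10.1% of all genes kept were as low or lower.

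Tnfaip3 encodes A20, a ubiquitin-editing enzyme that shuts off signalling from TNF and Toll-like receptors upstream of IκB kinase. Its brighter probe set read 9.61 on the ΔIE array and 10.55 on the F/F array, a 1.92-fold difference. The dimmer one read 5.94 on the ΔIE array, below the filter, and 6.43 on the F/F array, or -0.49. The differences of the pair lay 0.45 apart. In all, 5110 genes had at least 2 probe sets above the filter on at least 1 array. For 95% of them the differences of the 2 brightest lay within 0.41. The sign of Tnfaip3 thus rests on both probe sets and its size on the brighter. Of all genes kept, 5.87% were as low as the brighter probe set or lower, and of the 1810 genes within 0.5 of its mean level 4.03%.

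Set against each other, the subunit median lay 0.25 above the inhibitor median. The ranges overlapped, from -0.86 to -0.18 in the subunits and from -1.50 to -0.29 in the inhibitors. Rel lay lower than 3 of the 5 inhibitors, and Nfkbiz and Nfkbia lay above Nfkb2. The inhibitors thus held the member that differed most, Nfkbie, and also members that differed less than Nfkb2 and Rel. Rel was kept through its F/F value alone and so had to be lower. Where both arrays had to pass the filter, the subunits ran from -0.44 to -0.18. Their median was then -0.28, which lay 0.33 above that of the inhibitors.

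**Figure D2:**
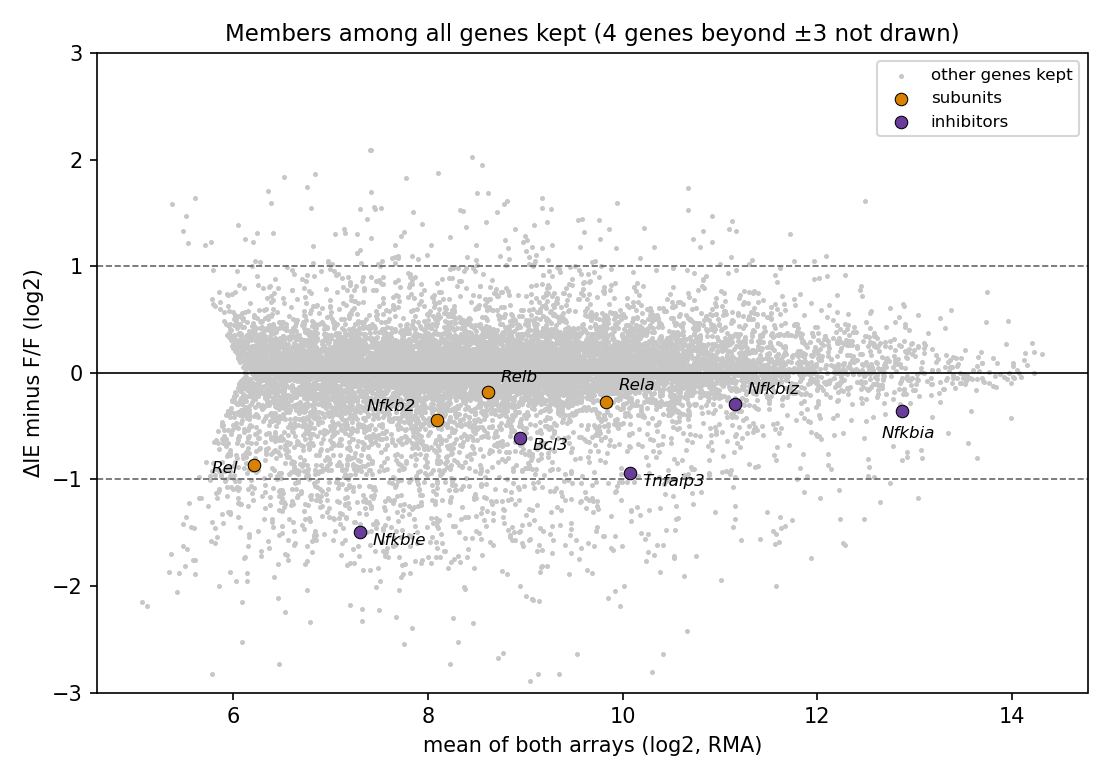
Difference ΔIE minus F/F (log2, vertical axis) against the mean of both arrays (log2, horizontal axis) for all 11899 genes kept, with subunits in orange and inhibitors in purple; dashed lines mark 2-fold, and 4 genes beyond 3 on the log2 scale are not drawn. All 9 members lie below 0 and only Nfkbie lies below the lower dashed line.

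The rest of the pathway was described through 5 further lists by role. Signal transducers between receptor and IκB hardly differed. Of 22 kinases and adaptors of the canonical branch, 11 were lower and 10 higher, none by 1.5-fold, and the median was -0.01. Ikbkb, the catalytic IκB kinase subunit, differed by -0.17 and its regulatory partner Ikbkg by 0.08, both chosen after their values were seen. The largest differences were those of Malt1 (-0.51), a protease of antigen receptor signalling, Myd88 (-0.40), the adaptor of Toll-like and IL-1 receptors, and Irak3 (-0.32), an inhibitory kinase homologue of that pathway. The second Irak3 probe set differed by 0.06. Rnf31, a subunit of the linear ubiquitin ligase, was higher by 0.31. Birc2 and Traf2 of the TNF receptor complex differed by -0.26 and -0.22.

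Further IκB proteins and A20 partners divided in a similar way. Of 11 genes, 7 were lower and 4 higher, with a median of -0.05, and only Zc3h12a passed 1.5-fold. Zc3h12a encodes Regnase-1, an RNase that destroys inflammatory transcripts, and read 8.34 on the ΔIE array and 9.02 on the F/F array, but its second probe set differed by 0.01. Nfkbid, the gene of a further nuclear IκB protein, differed by -0.51 and Tnip2, which encodes an A20-binding protein, by -0.47. Rnf11, of the A20 complex, was higher by 0.33. The deubiquitinase gene Cyld and the IκBβ gene Nfkbib differed by -0.11 and 0.10. Their signs were not shared by all probe sets, as another of Cyld differed by 0.39 and the second of Nfkbib by -0.25.

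Transcripts of the ligands and receptors that start the pathway were lower. All 11 kept of 12 were lower on the ΔIE array, beside 46.5% of all genes kept, and the median was -0.56. A 2-fold difference was reached by 3 of them, while 5.3% of all genes kept were at least 2-fold lower. Il1b read 8.79 on the ΔIE array and 10.90 on the F/F array. Il17a read 6.88 on the ΔIE array and 8.43 on the F/F array, and Cd14, the lipopolysaccharide co-receptor of monocytes, 9.91 and 10.95 on the ΔIE and F/F arrays. Cd14 is also counted among the macrophage and monocyte markers below. Tnfrsf1b and Tnf differed by -0.74 and -0.72, and the IL-17 receptor gene Il17ra by -0.56. The signs of Il1r1 (-0.52), Tlr4 (-0.49) and Il1rap (-0.38) were not shared by all their probe sets. Others of these genes reached 0.05, 0.17 and 0.33.

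The non-canonical branch was mixed, with 5 of its 8 genes above the filter lower on the ΔIE array and 3 higher. Ltb, which encodes lymphotoxin β, was 3.19-fold lower at 7.34 on the ΔIE array and 9.01 on the F/F array. Tnfsf11, the gene of RANKL, read 5.41 on the ΔIE array and 7.52 on the F/F array. Tnfrsf13c, the BAFF receptor of B cells, read 5.72 and 6.88 on the ΔIE and F/F arrays, and Cd40 5.46 and 6.37. Tnfsf13b, which encodes BAFF itself, differed by -0.53. The RANKL receptor gene Tnfrsf11a differed by 0.11. The lymphotoxin receptor gene Ltbr and the kinase gene Map3k14, chosen after their values were seen, differed by 0.09 and 0.04. The second probe sets of Tnfrsf11a and Map3k14 differed by -0.07 and -0.12. The ligand genes Lta and Cd40lg were below the filter on both arrays and differed by -0.25 and 0.11. The list median was -0.73 over 8 genes, and it turned to 0.04 where both arrays had to pass the filter, which removed Tnfsf11, Tnfrsf13c and Cd40.

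Textbook targets of NF-κB other than the members were lower on the ΔIE array. All 23 kept of 26 with a probe set were lower, 17 at least 1.5-fold and 14 at least 2-fold, with a median of -1.08. Of all genes kept, 46.5% were lower, 10.6% at least 1.5-fold and 5.3% at least 2-fold. Il6, Nos2 and Traf1 were kept through their F/F value alone and so had to be lower. Where both arrays had to pass the filter, all 20 targets left were lower, with a median of -1.18. Of these targets, 14 were at least 1.5-fold and 12 at least 2-fold lower, beside 9.01% and 4.28% of all genes. The 3 below the filter on both arrays, Sele, Plau and Csf2, differed by -0.47, -0.06 and 0.06. The chemokine genes Ccl20, Cxcl1, Cxcl2, Cxcl5, Cxcl10 and Ccl2 were 2.12-fold to 4.93-fold lower. The Cxcl1 probe sets ranged from -2.03 to -0.43. Il6 read 5.05 on the ΔIE array and 7.00 on the F/F array. The adhesion molecule genes Icam1 and Vcam1 were 2.64-fold and 2.42-fold lower, the granulocyte growth factor gene Csf3 2.58-fold, Mmp9 2.95-fold, Lcn2 2.86-fold and Ptgs2, the gene of cyclooxygenase-2, 2.03-fold. The second Ptgs2 probe set differed by only -0.16. Nos2, which encodes inducible nitric oxide synthase, read 5.52 on the ΔIE array, below the filter, and 6.60 on the F/F array. The smallest differences among the targets kept, named after their values were seen, were those of Sod2 (-0.05), Bcl2l1 (-0.08) and Irf1 (-0.17). Other probe sets of Sod2, Bcl2l1 and Cd44 reached 0.08, 0.27 and 0.10. The members, at a median of -0.44, thus lay between the signal transducers and the targets in the size of their difference. So did the other IκB and A20 partners (-0.05), the upstream ligands and receptors (-0.56) and the non-canonical branch (-0.73).

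**Figure D3:**
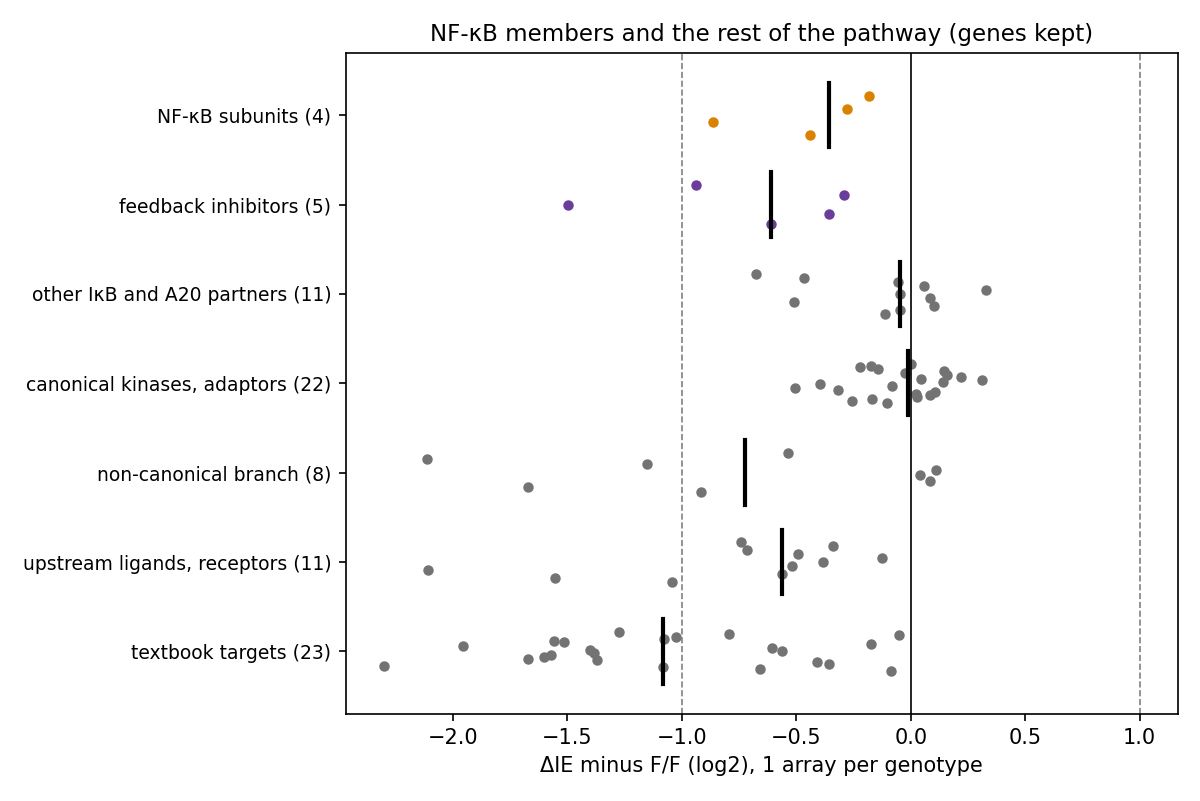
Difference ΔIE minus F/F (log2, horizontal axis) of each gene kept, by role, with the number of genes in brackets; each point is a gene, vertical offsets carry no value, black bars are list medians and dashed lines mark 2-fold. Kinases and adaptors centre on -0.01, subunits on -0.36, inhibitors on -0.61 and targets on -1.08. Other IκB and A20 partners centre on -0.05, upstream ligands and receptors on -0.56 and the non-canonical branch on -0.73.

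Markers of several other cell types were also lower on the ΔIE array, where 46.5% of all genes kept were lower. All 7 B cell markers kept were lower with a median difference of -1.73, at a median level of 6.70 on the ΔIE array and 8.37 on the F/F array, Ms4a1 (-2.68) and Cr2 (-2.15) the most. Cr2, Fcer2a and Pax5 were kept through their F/F value alone and so had to be lower, and the other 4 had a median of -1.81. All 8 macrophage and monocyte markers were lower by a median of -1.28 (levels 7.85 on the ΔIE array and 9.38 on the F/F array), with Clec7a at -1.61 and Itgam, kept through its F/F value alone, at -1.48. All 8 neutrophil markers were lower too, by -1.48 (levels 8.47 and 10.14 on the ΔIE and F/F arrays), with Camp at -1.87 and Trem1 at -1.79. NF-κB is active in leukocytes as well as in other cells, and which cells gave the members' transcripts was not measured. The part of these leukocytes in the differences of the members was not tested.

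Of 7 T cell markers 4 were kept, all lower, with a median of -0.37. Cd2 and Cd5, below the filter on both arrays, differed by -1.28 and -1.04, and the median over all 7 was -0.53. Fibroblast and matrix markers (8 of 8 lower) had a median of -0.88 and endothelial markers (8 of 8) of -0.66. Other probe sets of Cd4 (T cell), Cdh5 (endothelium) and Trp63 (squamous epithelium) reached 0.20, 0.08 and 0.09. Squamous epithelium markers (all 7 kept were lower) lay at -1.36 and posterior Hox genes (all 7 kept were lower), which mark position along the gut, at -1.49. Of these Hox genes, Hoxa10, Hoxa13 and Hoxd11 were kept through their F/F value alone and so had to be lower, and the other 4 had a median of -2.13. Colon epithelium markers went the other way, with 7 of 8 higher and a median of 0.27, and Cdx2 at 1.02 and Cdh17 at 0.37. The members' medians of -0.36 and -0.61 lay below that of the colon epithelium list and above those of the B cell, macrophage and neutrophil lists. They also lay above those of the endothelial, fibroblast, squamous and Hox lists, and the T cell median of -0.37 lay between them. The part of cell makeup or of position along the gut in the differences of the members was not tested.

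**Figure D4:**
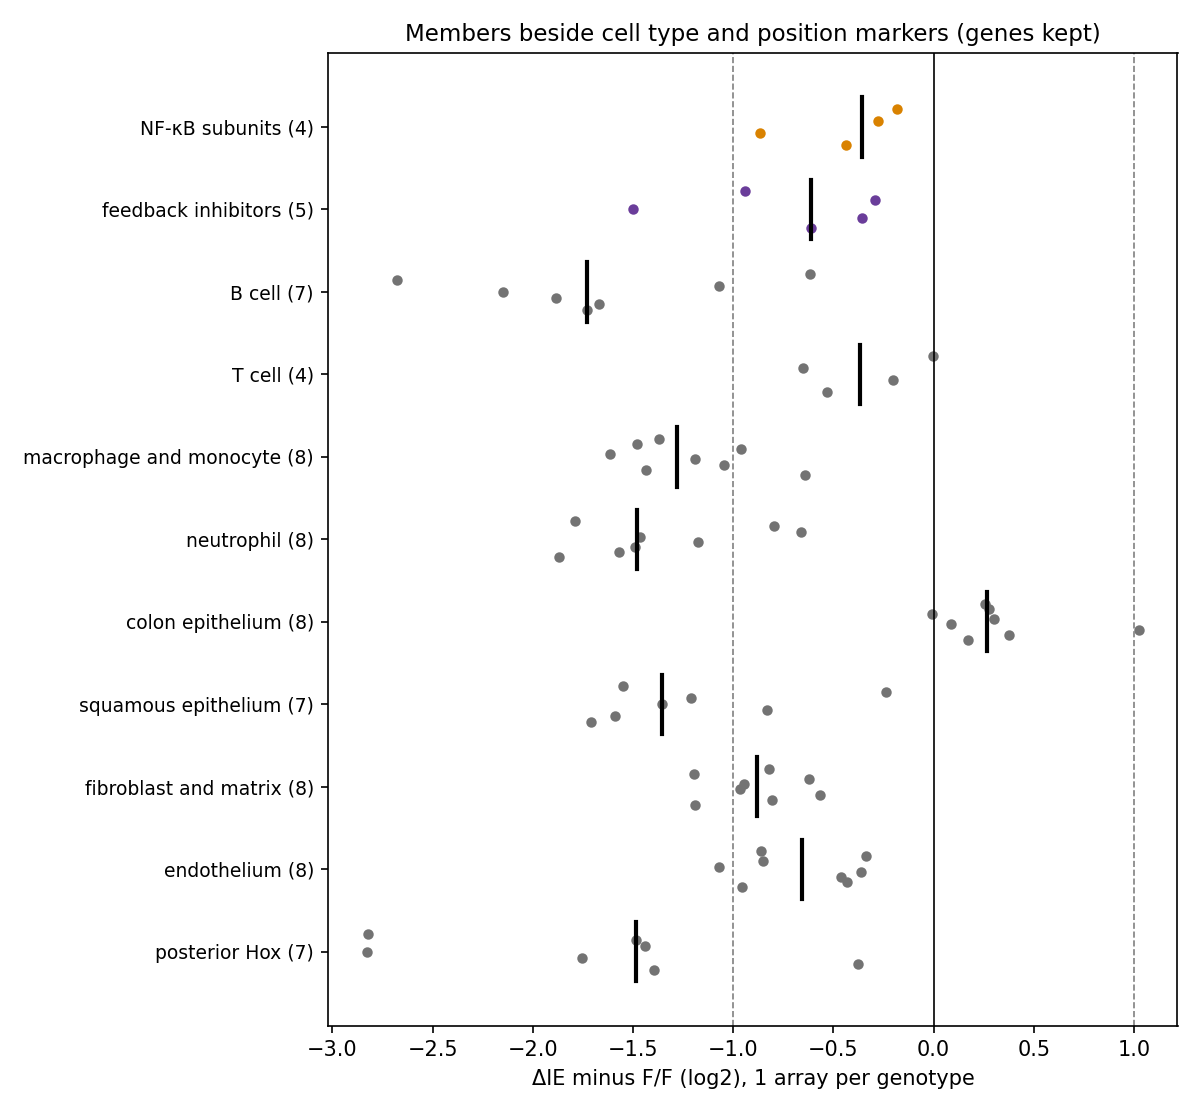
Difference ΔIE minus F/F (log2, horizontal axis) of members and of marker genes kept, with numbers of genes in brackets; points are genes, vertical offsets carry no value, black bars are medians and dashed lines mark 2-fold. Colon epithelium markers centre on 0.27, and B cell, neutrophil and macrophage markers on -1.73, -1.48 and -1.28.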

How the data were processed

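Total RNA of colon mucosal scrapings (250 ng labelled with biotin) was hybridised to 1 array per genotype, assigned from the genotype label. The deposited values are log2 expression from RMA in the affy package, run by the authors per the submitters' processing notes; the sources used here give neither versions nor which arrays were normalized together. Quantile normalization equalises the arrays, and RMA gives no detection call. The number of arrays limits the precision.

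Probe sets took symbols from the platform annotation (34958 with 1 symbol, 932 with several and 9211 with none, the last 2 kinds left unnamed), and 64 control probe sets were set aside. As the design holds 1 array per genotype, no test was run. Differences, counts at 1.5-fold and 2-fold and medians were computed, and the code was tested on simulated data. Named were all members, up to 6 genes of largest difference or all at 2-fold in each pathway list, and up to 2 per marker list. Members and lists were chosen with earlier results of these data known. With 2 arrays, no likeness of pattern between genes could be measured. Python 3.11.15, pandas 2.3.3, statsmodels 0.14.6 and matplotlib 3.10.9 were used.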

Additional observations from a re-analysis of the deposited data

How the results depend on the processing

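The 7 alternatives averaged the probe sets of a gene, dropped those ending in _s_at or _x_at, raised the filter to the 75th percentile, applied it to both arrays or removed it, centred the medians, or applied a lowess correction (span 0.3). All 60 values of single members under them were below 0, and each lay within 0.41 of its reported value. Many of these values could not differ from the reported ones. The filter settings change which members are kept and not their values, and dropping probe sets altered only Nfkbie. Median centring moved every member by the same small amount. Nfkbie ranged from -1.50 to -1.10, and Tnfaip3 was -0.72 with its probe sets averaged. The subunit median ranged from -0.40 to -0.28, the inhibitor median from -0.64 to -0.49 and the gap between them from 0.21 to 0.33. The filter at the 75th percentile removed Rel and Nfkbie. With it, 2 members were at least 1.5-fold lower in place of 4, beside 9.42% of all genes kept. At 2-fold, 0 members were lower in place of 1, beside 5.08%. After the lowess correction 2 members, Nfkbie and Tnfaip3, were at least 2-fold lower, beside 5.49% of all genes kept. The median of the non-canonical list was 0.0398 with the filter on both arrays, in place of -0.73, and -0.22 with the filter at the 75th percentile. Fewer genes were kept in each of these filters. No paired analysis was possible because each genotype has 1 array. Dim values, such as those of Rel, have no detection call.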
